A study of Mus musculus with 6 samples.

Results

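The miR-199a and miR-214 microRNAs, which come in part from hairpins within the same host transcript, were read here in mouse left ventricle after sunitinib. MicroRNAs (miRNAs) are short RNAs that guide repression of messenger RNAs, mainly through pairing of bases 2 to 8, the seed. The members were chosen by name, with earlier results of these data known. They comprised every non-control spot whose systematic name was mmu-miR-199a-5p, mmu-miR-199a-3p, mmu-miR-214-3p or mmu-miR-214-5p. They were 4 of the 1881 mouse miRNAs on the array, on 10 of 4415 probes and 120 of 56430 spots. The sunitinib group was 3 left ventricle samples of male C57BL/6 mice given sunitinib, a tyrosine kinase inhibitor used against cancer. The control group was 3 left ventricle samples of male C57BL/6 mice given vehicle, and no genetic change is named in the labels for either group. The sources used here give no dose, duration or age. Nothing in the labels ties a sample to a separate animal, so every p-value reflects the spread between these 6 samples alone, part of which may be technical. Each sample was labelled with Cy3 from 200 ng of total RNA and read alone on 1 array.

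Each hairpin precursor is cut into a 5p and a 3p product, and usually one of them is loaded into Argonaute and persists while the other is degraded. In mice the hairpins Mir199a-2 and Mir214 lie inside Dnm3os, a long noncoding RNA within the Dnm3 gene, which is active in mesenchymal cells and fibroblasts and is needed for normal growth and skeletal development. In rodent hearts and heart cells, miR-199a-5p has been linked to control of the hypoxia factor HIF-1α and of the deacetylase SIRT1, miR-199a-3p to cardiomyocyte proliferation, and miR-214-3p to cardiac stress and to restraint of calcium overload. miR-214-5p is the product of the other arm of the miR-214 hairpin.

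The mature sequences are shown because they decide what each probe can tell apart. They are RefSeq entries on build GRCm38.p6, written 5′ to 3′ with the seed in capitals, and all 4 members matched.
miR-199a-5p: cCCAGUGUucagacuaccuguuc
miR-199a-3p: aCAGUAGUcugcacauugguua
miR-214-3p: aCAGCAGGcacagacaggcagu
miR-214-5p: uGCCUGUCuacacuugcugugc
miR-199b-3p: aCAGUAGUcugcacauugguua
miR-761: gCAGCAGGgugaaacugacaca
The 4 members have 4 different seeds, so none is a seed relative of another. Among 1679 mature names in the table, miR-199a-3p shared its seed only with miR-199b-3p, with which it is identical at 22 of 22 bases, and miR-214-3p shared its seed only with miR-761. miR-199a-5p and miR-214-5p shared theirs with no other name. miR-199b-3p has no entry of its own on the array, so the miR-199a-3p signal is that of both RNAs together.

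The precursors are shown because the comparison of arms below rests on them, with the mature arms in capitals (GRCm38.p6, strand as given).
Mir199a-2, chr1:162217814-162217923, + strand: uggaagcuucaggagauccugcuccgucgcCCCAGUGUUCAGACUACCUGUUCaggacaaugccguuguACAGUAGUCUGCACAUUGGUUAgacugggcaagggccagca
Mir199a-1, chr9:21496495-21496564, − strand: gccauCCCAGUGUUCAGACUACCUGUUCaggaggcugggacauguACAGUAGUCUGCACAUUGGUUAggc
Mir214, chr1:162223368-162223477, + strand: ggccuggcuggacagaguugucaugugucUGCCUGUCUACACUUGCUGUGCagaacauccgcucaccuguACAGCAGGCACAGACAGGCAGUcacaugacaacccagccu
Mir199a-2 and Mir214 lie 5444 bases apart, and the RefSeq annotation places both inside Dnm3os and Dnm3. Mir199a-1, which gives the same 2 mature arms, lies inside the dynamin gene Dnm2. Mir199b, a further source of the identical 3p arm, lies inside Dnm1 on chromosome 2. These placements are by position and take no account of strand, so they do not name the transcript that gives each hairpin. Among the members, only the miR-214 arms have a single source in this table.

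The probes, printed 5′ to 3′ from the array files, pair with the 3′ part of each miRNA.
miR-199a-5p, brightest probe: gaacaggtagtctgaacac
miR-199a-3p, brightest probe: taaccaatgtgcagactact
miR-214-3p, brightest probe: actgcctgtctgt
miR-214-5p, brightest probe: gcacagcaagtgtagac
These 4 probes cover bases 5 to 23 of miR-199a-5p, 3 to 22 of miR-199a-3p, 10 to 22 of miR-214-3p and 6 to 22 of miR-214-5p. The 13-base probe of miR-214-3p thus reaches none of the seed, and its next brightest probe has 12 bases. On build mm9, whose coordinates are not those of GRCm38.p6, the array files place the brightest probes of miR-214-3p at chr1:164153579-164153590 and of miR-214-5p at chr1:164153534-164153549. They place that of miR-199a-3p at chr2:32174047-32174065, which is on the chromosome of Mir199b, and leave those of miR-199a-5p unmapped. The array also carries miR-199b-5p, described here as a close relative. Its brightest probe differs from that of miR-199a-5p by G14A, counted from the probes' 5′ end, over the first 19 bases, with the differing base in capitals here.
miR-199a-5p probe: gaacaggtagtctGaacac
miR-199b-5p probe: gaacaggtagtctAaacactgg
Binding of either miRNA to the other's probe was not tested.

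All 6 arrays lay on 1 slide, from 1 scan, and no spot was saturated. miRNAs well above background numbered 240, 235 and 242 on the sunitinib arrays and 242, 252 and 238 on the control arrays. The tissue label fits its markers: the cardiomyocyte miRNAs miR-1a-3p, miR-133a-3p, miR-208a-3p and miR-499-5p were above background on all 6 arrays. Markers of liver, brain, skeletal muscle and epithelium were above background on none (0 of 6 miRNAs). A limma test of sunitinib against control covered the 237 miRNAs detected throughout either group. At a Benjamini-Hochberg adjusted p of 0.05, 8 passed (3.38%), of which 4 were higher (1.69%) and 4 lower (1.69%). With quantile normalization the split was 0 higher and 4 lower, and without scaling it was 1 and 3.

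Of the 4 arms, 3 were measurable: miR-199a-5p, miR-199a-3p and miR-214-3p were well above background on all 6 arrays, and miR-214-5p was so on none. In sunitinib hearts each of the 3 was between 1.05-fold and 1.06-fold below control, and 0 of 3 passed the limma test, against 3.38% of all tested miRNAs in either direction and 1.69% in each. None of the 3 had an unadjusted p under 0.05 either, a level that 45 of the 237 (19%) reached. The groups overlapped for all 3, while they did not overlap for 27.4% of all tested miRNAs (18.1% higher and 9.28% lower in sunitinib). In whole ventricle, fewer cells of a type and less of a miRNA per cell cannot be told apart.

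mmu-miR-199a-5p had log2 signals of 8.02, 8.02 and 7.81 in sunitinib replicates 1 to 3, against 8.09, 8.11 and 7.86 in control replicates 1 to 3. The third replicate was the lowest array in each group, and sunitinib replicates 1 and 2 lay between the control values. Means were 7.95 ± 0.12 in sunitinib and 8.02 ± 0.14 in control (SD, n = 3 each). Sunitinib minus control was -0.071 log2 units (95% interval -0.31 to 0.17, SE 0.099), and limma gave an adjusted p of 0.738.

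mmu-miR-199a-3p, read together with miR-199b-3p, had log2 signals of 9.93, 9.97 and 9.74 in sunitinib, against 10.0045, 10.06 and 9.83 in control. Sunitinib replicates 1 and 2 again lay within the control range and replicate 3 lay below it. Means were 9.88 ± 0.12 in sunitinib and 9.96 ± 0.12 in control (SD, n = 3 each). Sunitinib minus control was -0.084 log2 units (95% interval -0.31 to 0.15, SE 0.095), and limma gave an adjusted p of 0.681.

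mmu-miR-214-3p had log2 signals of 6.57, 6.63 and 6.51 in sunitinib, against 6.67, 6.72 and 6.56 in control. Replicate 3 was the lowest array in each group here too. Means were 6.57 ± 0.06 in sunitinib and 6.65 ± 0.08 in control (SD, n = 3 each). Sunitinib minus control was -0.084 log2 units (95% interval -0.25 to 0.086, SE 0.070), and limma gave an adjusted p of 0.597. This was the narrowest interval of the 3, and the pooled SD within groups was 0.072, against a median of 0.11 over all tested miRNAs.

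**Figure D1:**
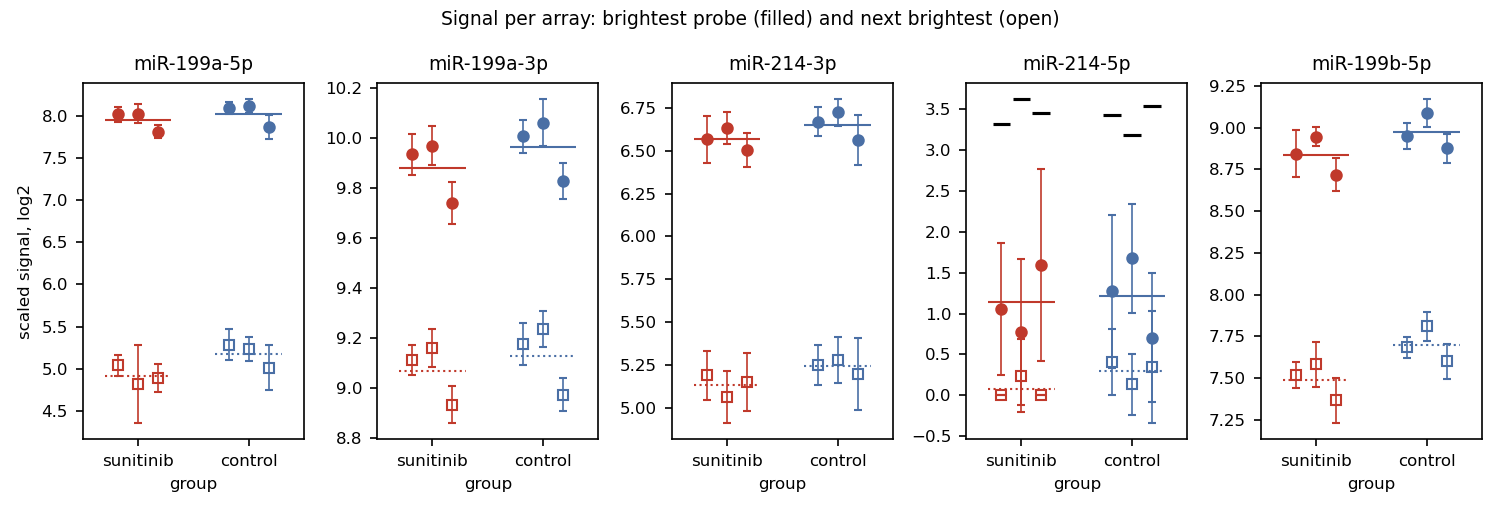
Scaled log2 signal (vertical axis, a different range in each panel) of each miRNA on each array, sunitinib left of control, replicates 1 to 3 from left to right within a group. Filled circles are the brightest probe and open squares the next brightest, error bars are the SD over the spots of a probe, horizontal lines are group means (dotted for the next brightest probe), and black ticks for miR-214-5p mark each array's lowest signal among probes well above background. For the brightest probes the groups overlap in every panel, and miR-214-5p lies below its ticks on all 6 arrays.

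mmu-miR-214-5p stayed below the detection limit in both groups, although its hairpin partner miR-214-3p was measured on every array. Its brightest probe read 1.05, 0.78 and 1.59 in sunitinib, against 1.27, 1.68 and 0.70 in control, on the log2 scale, with linear signals floored at 1. The lowest signal of any probe well above background was 3.32, 3.62 and 3.45 on the sunitinib arrays and 3.43, 3.18 and 3.54 on the control arrays. Over its 4 probes and 6 arrays, 0 of 180 spots were well above background, and the unscaled, background-subtracted signals of the spots used ran from -4.37 to 7.93. No change is given for this arm. miR-761, the seed relative of miR-214-3p, was well above background on no array, and its brightest probe had log2 values of at most 0.095 in sunitinib and 0.23 in control.

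Each probe was printed many times, which separates the precision of a spot from the spread between samples. The brightest probes of the 3 measured members had 15 spots an array, and the standard error over spots was between 0.018 and 0.037 log2 units. The SD between arrays of a group was between 0.06 and 0.14. By the brightest probes of these 3 arms, the arrays of a group thus differed by more than the error of reading a probe. For the next brightest probes of miR-199a-5p and miR-214-3p the standard error over spots reached 0.12 and 0.055. The lower SD between arrays of a group was 0.11 and 0.042 for these probes. All 6 probes of the 3 measured members averaged lower in sunitinib, a direction shared by 47.3% of all tested miRNAs at their brightest probe, and the 2 probes of a miRNA are not independent.

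The next brightest probes gave values of their own. For miR-214-3p this probe read 5.19, 5.07 and 5.15 in sunitinib, against 5.25, 5.28 and 5.20 in control, so sunitinib lay below control without overlap, as by the next brightest probe it did for 12.7% of all tested miRNAs. The difference of -0.11 did not pass (limma adjusted p = 0.497). The nearest values, 5.192 for sunitinib replicate 1 and 5.200 for control replicate 3, differed by less than their spot standard errors (0.037 and 0.055). This probe was dim too, with unscaled spot medians between 31.6 and 42.3. For miR-199a-5p the next brightest probe read 5.04, 4.82 and 4.89 in sunitinib, against 5.29, 5.23 and 5.01 in control, with overlap at sunitinib replicate 1. That difference was -0.26 (limma adjusted p = 0.272, unadjusted p = 0.044), the largest seen for any member. It rested on the dimmer of the 2 probes, with unscaled spot medians between 27.1 and 43.9. For miR-199a-3p the next brightest probe differed by only -0.060 (limma adjusted p = 0.786).

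**Figure D2:**
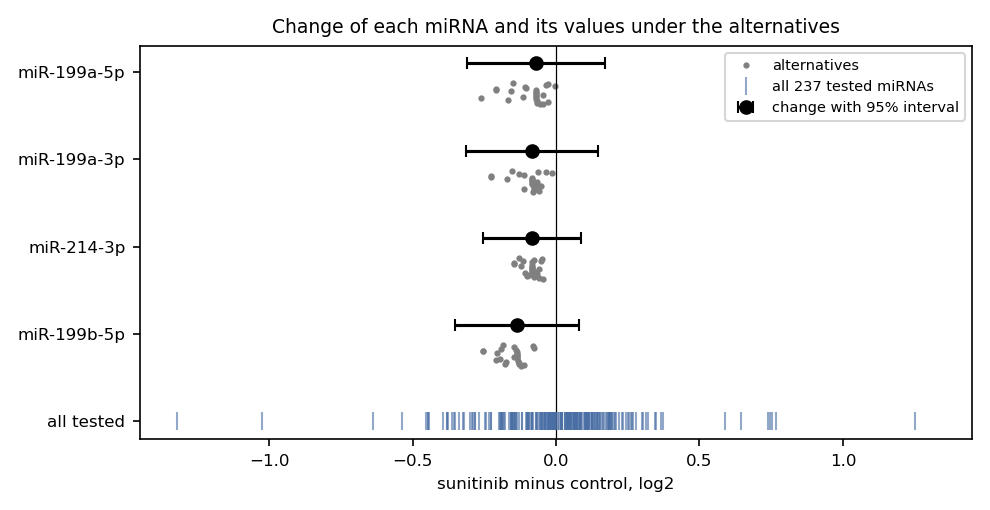
Log2 change, sunitinib minus control (horizontal axis), of the 3 measured members and miR-199b-5p, as a black point with its 95% interval from limma, with the 25 alternatives as grey points below it. The bottom line marks the changes of the 237 tested miRNAs, except miR-511-3p (-1.97) and miR-5110 (2.39), which lie outside the axis. All 4 intervals include 0.

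miR-199b-5p, from the Mir199b hairpin, was also slightly lower in mean without passing. It had log2 signals of 8.84, 8.95 and 8.72 in sunitinib, against 8.95, 9.09 and 8.88 in control, and replicate 3 was again the lowest array in each group. Sunitinib minus control was -0.14 log2 units (95% interval -0.35 to 0.079, SE 0.089), and limma gave an adjusted p of 0.459. Its next brightest probe differed by -0.21 and did not pass (limma adjusted p = 0.312). By that probe sunitinib lay below control without overlap, as it did for 12.7% of all tested miRNAs by theirs. The nearest values, 7.58 for sunitinib replicate 2 and 7.60 for control replicate 3, differed by less than their spot standard errors (0.034 and 0.026).

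The 2 miR-199a arms followed each other closely from array to array, and miR-214-3p less closely. Likeness was measured as the root mean square distance over the 6 arrays between values centred on each miRNA's own mean. Among the other 236 tested miRNAs, the one nearest to miR-199a-5p was miR-199a-3p, at 0.019 log2 units, and the reverse held as well. The median distance from miR-199a-5p to the others was 0.18. Of all 27966 pairs of tested miRNAs, 0.0143% were closer than these 2 arms, 1.03% closer than miR-199a-3p with miR-214-3p, and 1.97% closer than miR-199a-5p with miR-214-3p. With each group centred on its own mean these shares were 0.079%, 3.43% and 5.87%. This is a description over 6 arrays that share their scaling, with no test.

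The next nearest names included arms of the Mir214 and Mir199b hairpins. For miR-199a-5p they were miR-140-3p (0.044) and miR-214-3p (0.056). For miR-199a-3p they were miR-199b-5p and miR-214-3p (both 0.047). For miR-214-3p the 3 nearest were let-7e-5p (0.042), miR-199b-5p (0.047) and miR-199a-3p (0.047), and miR-199a-5p was the fifth. With each group centred on its own mean, so that no difference between groups enters, the 2 miR-199a arms were 0.017 apart, against a median of 0.15 over all pairs. miR-199a-3p, whose signal can come from hairpins placed within Dnm3os, Dnm2 and Dnm1, and miR-214-3p were then 0.047 apart.

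**Figure D3:**
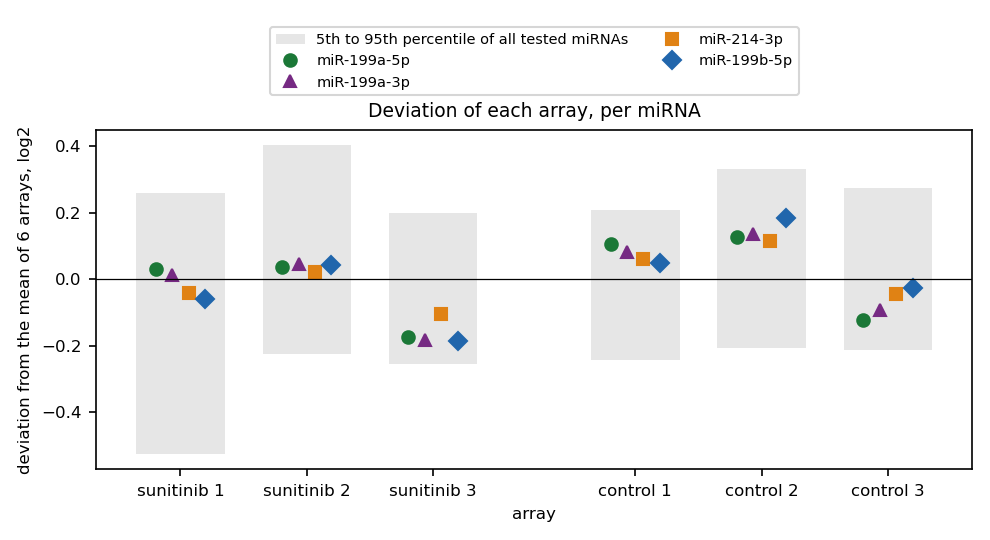
Deviation of each array from the mean of the 6 arrays (vertical axis, log2 units) for miR-199a-5p, miR-199a-3p, miR-214-3p and miR-199b-5p, by array, sunitinib left of control. Grey boxes span the 5th to 95th percentile of all tested miRNAs on that array. Each of the 4 miRNAs was lowest on sunitinib replicate 3 and highest on control replicate 2. They ran from -0.060 (miR-199b-5p) to 0.029 (miR-199a-5p) on sunitinib replicate 1. On control replicate 3 they ran from -0.12 (miR-199a-5p) to -0.026 (miR-199b-5p).

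On the arrays, 20 hairpins had both arms tested, and the miR-199a arms were the closest of these pairs. The next were those of miR-30a at 0.052 and miR-22 at 0.060, and the median was 0.13. The pairs were not matched for brightness. Mean log2 signals of the 3p and 5p arms were 9.92 and 7.99 for miR-199a. For the most distant pairs they were 3.89 and 7.62 (miR-139) and 3.99 and 5.09 (miR-3102). The arms of miR-126a, at 13.29 and 6.76, were 0.16 apart. The part of brightness in these distances was not tested. For miR-199a the closeness depended on the probe. It was 0.016 between the 2 probes of miR-199a-3p and 0.13 between the 2 probes of miR-199a-5p. With the next brightest probe of each miRNA, the arms were 0.14 apart and miR-199a-3p ranked 19 of 236 in nearness to miR-199a-5p. In the deposited value table they were 0.090 apart and it ranked 9.

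**Figure D4:**
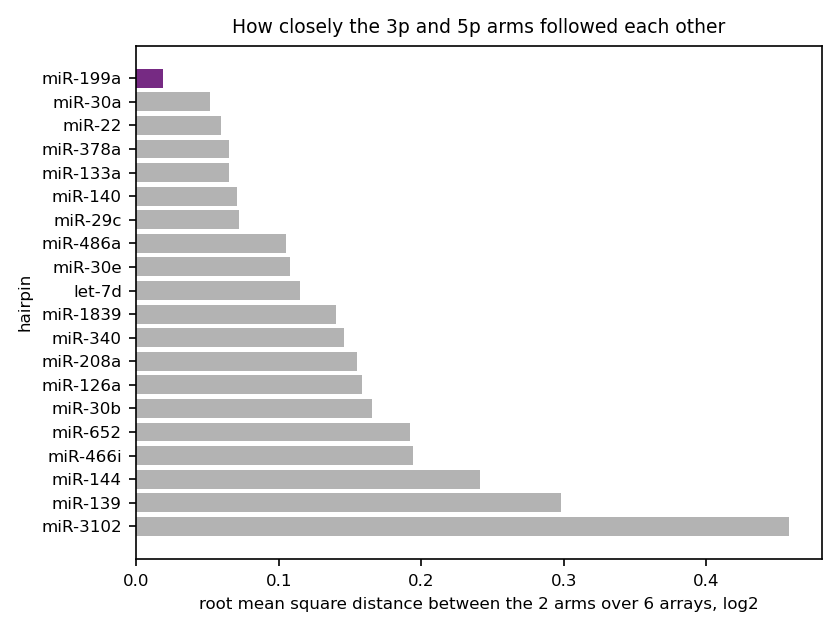
Root mean square distance over 6 arrays between the centred log2 values of the 3p and 5p arms (horizontal axis) for 20 hairpins with both arms tested (vertical axis), from brightest probes. Arms with a copy number in the name are left out. The miR-199a hairpin, in purple, has the shortest bar at 0.019, and its 3p signal includes miR-199b-3p.

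The balance between arms was compared within each array, where scaling cancels. The log2 signal of miR-199a-3p minus that of miR-199a-5p was 1.92, 1.94 and 1.93 in sunitinib, against 1.91, 1.95 and 1.97 in control. This number depends on the probes and is no ratio of amounts. Because the 3p signal includes miR-199b-3p, its change between groups is not that of the miR-199a arms alone. The groups overlapped, and the difference was -0.012 (exact two-sided permutation test, p = 0.6). With quantile normalization it was -0.086 and with all probes averaged 0.094, of opposite sign, and in both the groups did not overlap (exact permutation p = 0.1). miR-199a-3p minus miR-214-3p was 3.37, 3.34 and 3.23 in sunitinib, against 3.34, 3.34 and 3.27 in control, a difference of 0.00047 (exact permutation p = 1). With 3 against 3 samples the smallest p is 0.1. Over 5 such pairs, 3 of them chosen after seeing the data, the smallest exact permutation p was 0.3, or 0.75 after Benjamini-Hochberg adjustment. The widest difference was -0.065, for miR-199b-5p minus miR-199a-5p. The miR-214 arms were not compared, because miR-214-5p had no signal above background.

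The groups were unevenly placed on the slide. The 3 control arrays and sunitinib replicate 3 lay in 1 row of the slide, and sunitinib replicates 1 and 2 in the other. Within the shared row, sunitinib replicate 3 lay below the control mean by -0.21 for miR-199a-5p, -0.23 for miR-199a-3p and -0.15 for miR-214-3p, on the log2 scale. Without that array the changes were -0.0023, -0.013 and -0.054. With the row as a block, limma adjusted p was 0.755, 0.70 and 0.757. The 2 sunitinib arrays of the other row exceeded sunitinib replicate 3 by 0.21, 0.21 and 0.092, and row and sample cannot be told apart there.

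Other miRNAs reported to change in the stressed heart were read beside the members, from a list of 15 that leaves out miR-199a and miR-214. All 15 were tested, 1 rose, against 1.69% of all tested miRNAs, 14 did not pass, and the median log2 change was 0.067, against 0.019 over all tested miRNAs. The one that rose was miR-210-3p, which hypoxia induces, at 0.37 (limma adjusted p = 0.037). Among 25 alternatives the call held in 8, with changes from 0.23 to 0.40 and limma adjusted p from 0.025 to 0.368, and in none of those that left out a sample or fitted a block. Without passing, miR-208b-3p, which lies within the slow myosin gene Myh7, was at 1.25, miR-212-3p at -0.45 and miR-23a-3p at 0.17. For miR-208b-3p the SE was 0.53 and the limma adjusted p 0.263. Its groups overlapped, at 5.22 to 7.05 in sunitinib and 4.49 to 5.71 in control.

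A second list held 15 miRNAs abundant in mesenchymal cells and fibroblasts, miR-199b-5p among them. Of these, 14 were on the array and tested, 0 passed the limma test, against 3.38% of all tested miRNAs, and 2 had an unadjusted p under 0.05, as did 19% of all tested. The median log2 change was 0.028, against 0.019 over all tested miRNAs. miR-145a-5p, a smooth muscle miRNA, was at -0.23 and the antifibrotic miR-29a-3p at 0.26, each with a limma adjusted p of 0.211. miR-29c-3p was at 0.12 and miR-99a-5p at 0.088. Of 4 leukocyte markers, miR-223-3p (-1.32, limma adjusted p = 0.00086) and miR-142a-3p (-0.64, limma adjusted p = 0.020) fell, and miR-150-5p at 0.35 and miR-155-5p at 0.15 did not pass. miR-223-3p passed in all 25 alternatives, and miR-142a-3p in 14 of them, not with the slide row as block (limma adjusted p = 0.246) or without any 1 control sample. The summed linear signal of these 4 ranged from 423 to 499 in sunitinib and from 630 to 698 in control. That of the 2 mural markers, miR-143-3p and miR-145a-5p, ranged from 625 to 651 in sunitinib and from 648 to 730 in control. The part of these cell types in the values of miR-199a and miR-214 was not tested.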

How the data were processed

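Per the file headers, the authors scanned 1-colour Agilent miRNA arrays with Feature Extraction 10.7.1.1 (build mm9), whose deposited spot intensity is background-subtracted with spatial detrending. Per the submitters' processing notes the version was 10.7. A spot well above background exceeds it by 13 times the background SD, per the file headers. The deposited value table holds the authors' log2 values, whose scale and centring no source used here states. Its column medians were 2.197, 2.198 and 2.195 in sunitinib and 2.194, 2.194 and 2.196 in control. Its deviations between arrays followed those of the scanner signal (Pearson r from 0.919 to 0.954 across miRNAs), with the same direction, and it served as an alternative only.

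Control spots and spots flagged as outliers were left out (2.79% to 3.06% of probe spots an array). Each array was scaled to its 75th percentile among the 393 probes detected on every array. Signals were floored at 1, then logged (log2) and averaged per probe. A probe was detected on an array if 50% or more of its spots were well above background, and a miRNA was tested if detected on every array of either group. The brightest probe stood for its miRNA. limma 3.58.1 in R 4.3.3 (lmFit, eBayes) compared the groups, with Benjamini-Hochberg adjustment over 237 miRNAs, and was tested on simulated data. Alternatives covered background correction, scaling, probe summary, filter, flags, floor, variance model, array weights, blocks and left-out samples. Groups came from the sample titles. The number of arrays limits the precision.

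The members and the miRNA lists were chosen with earlier results of these data known. Named besides the members were array miRNAs sharing a seed with a member, miR-199b, the 3 miRNAs nearest to each tested member, and up to 4 of each list by unadjusted p. Marker lists stood for cardiomyocyte, endothelial (miR-126a-3p -0.019, miR-126a-5p -0.18), mural, leukocyte, erythroid (miR-451a 0.19, miR-144-3p -0.10) and other tissues.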

Additional observations from a re-analysis of the deposited data

How the results depend on the processing

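miR-199a-5p, miR-199a-3p and miR-214-3p stayed below control and short of the threshold in all 25 alternatives. Their log2 changes ran from -0.26 to -0.0023, -0.23 to -0.013 and -0.15 to -0.044, with limma adjusted p from 0.272 to 0.997, 0.306 to 0.986 and 0.306 to 0.977. Leaving out 1 sample gave -0.15 to -0.0023, -0.15 to -0.013 and -0.13 to -0.049. For direction the alternatives are not separate checks. The filter, floor, variance model and replicate block left these changes as in the main fit. The slide row as a block and the shared row alone gave equal changes. miR-199b-5p ran from -0.25 to -0.077. Without a filter miR-214-5p was at -0.078 (95% interval -0.77 to 0.62, limma adjusted p = 0.975), among values below background. Of all miRNAs, 4 passed as higher and 4 as lower. Under normexp these counts were 2 and 2, under the summed signal 1 and 1, under the replicate block 0 and 2, and with slide row as block 0 and 1. The higher count was 0 under quantile normalization, 1 without scaling, 0 without a filter and 1 within the shared slide row. Averaging all probes gave 7 lower, as did array weights (7). Leaving out 1 sample gave 0 to 5 higher and 2 to 3 lower: 1 higher without sunitinib replicate 1 or 2, 5 without sunitinib replicate 3, and 0 higher and 2 lower without control replicate 1, 2 or 3. The arm difference of miR-199a reversed to 0.094 when all probes were averaged, 0.017 with the summed signal and 0.033 in the deposited table. It ran from -0.027 to -0.00050 without 1 sample. miR-199a-3p minus miR-214-3p reversed to -0.037 with normexp, -0.013 with quantile normalization and -0.010 in the deposited table, and ran from -0.026 to 0.040 without 1 sample. The cause of these moves was not tested. Whether the replicate numbers pair the samples was not settled. Same-numbered samples had deviations correlated at 0.18, 0.22 and -0.055 across miRNAs. Sunitinib replicates 1 and 2 each correlated best with the control of the same number, and sunitinib replicate 3 with control replicate 1 (0.25). With the replicate block the 3 members were at -0.071, -0.084 and -0.084 (limma adjusted p = 0.621, 0.565 and 0.565), changes that a balanced block cannot alter. The arm difference of miR-214 was not computed under any alternative, since miR-214-5p was below background. The alternatives for the distance between the miR-199a arms were chosen after seeing the data; it was 0.056 with quantile normalization and 0.073 with all probes averaged.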
